A study of Rattus norvegicus with 2 samples.

Results

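The Notch pathway was described in skeletal muscle of an SD rat and of a rat-mouse chimera through 10 genes, the ligands Dll1, Dll4, Jag1 and Jag2, the receptors Notch1, Notch2, Notch3 and Notch4, and the target genes Hey1 and Heyl. They were chosen by name, and each name matched 1 rat row and 1 mouse row, which makes 10 of 23373 rat genes and 10 of 25906 mouse genes. Muscle taken from the whole body was dissociated with collagenase, live cells were sorted with a viability dye, and transcripts were counted by droplet single-cell RNA-seq from their 3′ ends, each captured molecule as 1 unique molecular identifier (UMI). One group is the SD rat (Sprague Dawley, the host strain, with no injected cells), and the other is an SD rat injected as a morula with mouse induced pluripotent stem cells (iPSCs). Per the study, the iPSCs came from the Dmd mdx model of muscular dystrophy with the dystrophin gene edited, and carried the Pax7-nGFP reporter of satellite cells. The labels give no age, sex or treatment. Each group is 1 animal and 1 library, so no difference below has a replicate check, no p-value is given, and animal, library and group cannot be told apart.

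The SD rat library held 10117 barcodes and 70957559 UMIs (median 5373 per barcode), and the chimera library 13299 barcodes and 118872850 UMIs (median 7407). After filters and removal of predicted doublets, 8816 SD rat cells and 11730 chimera barcodes remained. Of the latter, 8230 had at most 20% of their UMIs on mouse genes (chimera rat cells), 1847 had at least 80% (chimera mouse cells), and 1653 were mixed and entered no class. The libraries shared 43 barcode sequences, and 28 kept SD rat cells had the barcode of a kept chimera rat or mouse cell. Clusters were built without Notch genes and called "X-like" from marker genes. Endothelial (EC)-like clusters held 1572 SD rat, 719 chimera rat and 1088 chimera mouse cells, in which every measured endothelial marker was detected. Pericyte or mural-like clusters held 386 and 421 rat cells and muscle progenitor (MP)-like clusters 357 SD rat, 418 chimera rat and 47 chimera mouse cells. No mouse cluster was named mural-like or lymphatic endothelial (LyEC)-like. Levels are CPM, the UMIs of a gene summed over a class per 1000000 UMIs of that class, and are compared between classes for 1 gene at a time, since counts are not scaled to gene length.

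In Notch signalling, a ligand of the Delta-like or Jagged family on one cell binds a Notch receptor on its neighbour, the receptor is cleaved, and its intracellular domain moves to the nucleus, where it joins the DNA-binding protein RBPJ and turns on target genes. Genes of the Hes and Hey families, which encode transcriptional repressors, are the classical targets. The pathway is known for setting arterial identity and tip and stalk cell fates in endothelium, for the maturation of the mural cells around vessels, and for keeping satellite cells, the stem cells of muscle, quiescent.

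Upstream sequences of 4 rat genes are shown because the levels below separate them, Dll1 and Notch4 being highest in EC-like and Notch3 and Heyl in mural-like rat cells. Each is the 250 bases before the transcription start in RefSeq (assembly GRCr8, not the assembly used for mapping), 5′ to 3′ on the strand of the gene, and capitals mark the core of the RBPJ motif, TGGGAA, or TTCCCA for a match on the other strand.
Dll1, chr1:64993275-64993524, minus strand: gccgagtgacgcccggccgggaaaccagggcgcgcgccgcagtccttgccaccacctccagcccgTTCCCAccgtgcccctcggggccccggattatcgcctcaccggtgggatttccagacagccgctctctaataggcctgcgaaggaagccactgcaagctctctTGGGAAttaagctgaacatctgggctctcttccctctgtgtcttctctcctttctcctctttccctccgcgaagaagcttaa
Notch4, chr20:4189073-4189322, minus strand: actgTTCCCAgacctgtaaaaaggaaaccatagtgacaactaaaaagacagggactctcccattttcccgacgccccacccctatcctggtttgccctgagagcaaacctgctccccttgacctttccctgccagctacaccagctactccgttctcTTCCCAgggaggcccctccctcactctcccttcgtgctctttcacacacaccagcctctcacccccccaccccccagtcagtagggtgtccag
Notch3, chr7:11834586-11834835, minus strand: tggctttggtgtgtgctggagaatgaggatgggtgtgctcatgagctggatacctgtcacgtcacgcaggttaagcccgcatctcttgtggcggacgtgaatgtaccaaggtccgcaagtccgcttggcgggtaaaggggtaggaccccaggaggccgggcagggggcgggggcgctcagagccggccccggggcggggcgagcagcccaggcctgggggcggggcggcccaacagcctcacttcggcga
Heyl, chr5:140793021-140793270, plus strand: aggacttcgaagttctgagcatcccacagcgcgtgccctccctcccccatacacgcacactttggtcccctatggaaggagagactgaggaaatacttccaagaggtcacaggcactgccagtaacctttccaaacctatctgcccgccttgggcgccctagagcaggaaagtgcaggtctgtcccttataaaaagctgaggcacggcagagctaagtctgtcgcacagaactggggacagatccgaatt
Dll1 holds 1 match on each strand and Notch4 holds 2 on the other strand. RefSeq windows were found for 8 of the 10 genes, not for Dll4 and Hey1, and 2 of the 8 hold a match. The windows of Jag1, Jag2, Notch1, Notch2, Notch3 and Heyl hold none, although Notch1 and Jag2 were also highest in EC-like rat cells. Of 33469 rat windows of this length, 22.1% hold at least 1 match on either strand and 2.71% hold 2 or more. A match is a run of letters and not a binding site, and its absence from this window says nothing about the factor.

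Across the classes, Notch ligands, receptors and Hey genes were mostly highest in vessel cells. Cycling and erythroid-like classes were left out of this ranking and of those below. In SD rat cells, 9 of the 10 genes had their highest CPM in an EC-like, LyEC-like or mural-like class, against 24.4% of 13182 rat genes with at least 50 UMIs. In chimera rat cells, 9 of the 10 did so, against 23.6% of 13434 genes. In chimera mouse cells, which had no mural-like or LyEC-like class, 7 of the 10 were highest in EC-like cells, against 13.5% of 11442 mouse genes. The 10 genes were chosen with earlier results of these data known, so these counts are a description only. Notch2 was highest in myeloid-like cells in all 3 populations, and Notch3 and Heyl were highest in MP-like cells in the mouse, which had no mural-like class. MP-like cells of all 3 populations held mural markers (sums given below), whose part in these levels was not tested. Every gene but mouse Heyl reached 50 UMIs in each population. The 69 cycling mouse cells read 142 CPM of Notch1, 67.6 CPM of Notch4 and 65.3 CPM of Dll4. These levels lay above those of mouse EC-like cells, with overlapping intervals. The cycling cell with most UMIs of a gene held 42 of 124 for Notch1, 11 of 59 for Notch4 and 8 of 57 for Dll4. The order without that cell was not tested.

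**Figure D1:**
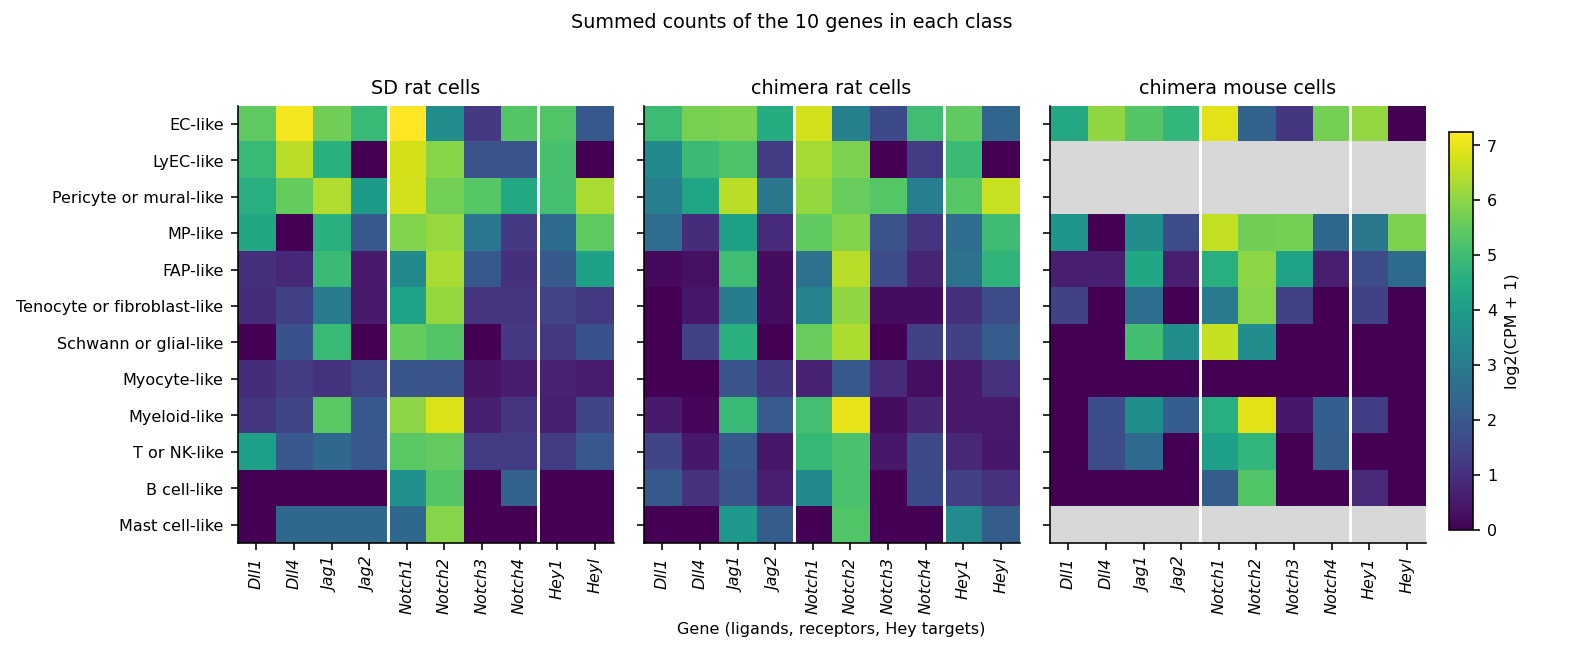
Level of each gene, as log2(CPM + 1), by class in SD rat, chimera rat and chimera mouse cells, with grey for classes that were not named. Among the classes shown, Dll4 and Notch4 stand highest in the EC-like class in all 3 populations, Jag1, Notch3 and Heyl in the mural-like class of rat cells, and Notch2 in the myeloid-like class.

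Among the ligands, Dll4, which acts in arterial and capillary endothelium and in tip cells, reached 140.3 CPM in SD rat EC-like cells (95% interval 129.7 to 152, 652 UMIs), 52.6 CPM in chimera rat (45.6 to 60.4) and 64.8 CPM in chimera mouse EC-like cells (59.1 to 70.9). Intervals on CPM are exact Poisson intervals and, like all intervals here, cover counting error only. LyEC-like cells came next in the rat with 89.5 CPM in SD rat and 29.8 CPM in chimera rat cells, below EC-like cells with no overlap of the intervals. The 357 MP-like cells of the SD rat held no Dll4 UMI, which by a limit of 3 counts, used below for each count of 0, allows a level of up to 1.31 CPM (the exact 95% interval ends at 1.61 CPM). A Dll4 UMI was found in 23.3% of SD rat EC-like cells (median 1875 UMIs per cell) and in 2.17% of the deeper T or NK-like cells (median 6611.5). With each cell thinned to 1000 UMIs, the EC-like share was 13.5% in SD rat, 6.55% in chimera rat and 6.03% in chimera mouse cells, leaving out 444, 63 and 76 shallower cells, and 0%, 0% and 1.12% in T or NK-like cells.

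Dll1, a Delta-like ligand known from somites and the muscle lineage, was highest in EC-like cells too, at 42.2, 30.1 and 19.7 CPM in SD rat, chimera rat and chimera mouse cells. In SD rat cells LyEC-like (28.5 CPM), mural-like (22.9 CPM) and MP-like cells (19.3 CPM) followed, and the intervals of EC-like and LyEC-like cells overlapped. T or NK-like SD rat cells also read 16.1 CPM (8.03 to 28.8), from 11 UMIs in 6 of 92 cells. A UMI was found in 6.52% of them against 9.22% of EC-like cells. With thinning the shares were 1.09% and 4.43%. The 655 T or NK-like cells of the chimera rat read 1.85 CPM (0.89 to 3.41). The 89 of the chimera mouse held no Dll1 UMI, which allows up to 3.41 CPM. In chimera mouse cells, the MP-like level of 13.0 CPM rested on 6 UMIs, and its interval overlapped with that of EC-like cells.

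Jag1, a Jagged ligand used between endothelium and mural cells, was highest in mural-like cells, at 82.5 CPM in SD rat (70.0 to 96.5) and 88.9 CPM in chimera rat cells (77.7 to 101). EC-like cells stood below with no overlap of the intervals, at 49.7 and 54.7 CPM, and mouse EC-like cells at 38.3 CPM. Jag1 was also read outside vessels in SD rat cells, with 41.2 CPM in myeloid-like, 29.6 CPM in fibro-adipogenic progenitor (FAP)-like and 28.2 CPM in Schwann or glial-like cells. Jag2, the other Jagged ligand, stood at 28.2, 21.2 and 26.6 CPM in EC-like cells of SD rat, chimera rat and chimera mouse. The 110 LyEC-like SD rat cells held no Jag2 UMI, which allows up to 3.89 CPM, although Dll4 and Dll1 were both read there.

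Of the receptors, Notch1, the main receptor of endothelium, was highest in EC-like cells, at 150.0 CPM in SD rat (139 to 162), 105 CPM in chimera rat (95.1 to 116) and 119.7 CPM in chimera mouse cells (112 to 128). It was read widely beyond them. LyEC-like cells came second in the rat, at 109 CPM in SD rat and 76.5 CPM in chimera rat. Their interval overlapped that of EC-like cells in chimera rat and not in SD rat. Schwann or glial-like cells came second in the mouse at 96.2 CPM from 9 UMIs, with intervals that overlapped. Mural-like cells stood at 106 and 67.3 CPM in SD rat and chimera rat, and MP-like cells at 56.9, 43.2 and 93.4 CPM in SD rat, chimera rat and chimera mouse, where the mouse MP-like and EC-like intervals overlapped. Notch4, a receptor known mainly from endothelium, stood at 38.5, 31.4 and 52.1 CPM in EC-like cells and at 1.31, 1.18 and 4.34 CPM in MP-like cells. LyEC-like cells read 2.59 CPM of Notch4 in SD rat and 1.42 CPM in chimera rat, below EC-like cells with no overlap of the intervals.

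Notch2, a receptor of many tissues, was highest in myeloid-like cells, at 115, 127 and 120.1 CPM in SD rat, chimera rat and chimera mouse. FAP-like cells came second at 78.5, 87.2 and 62.3 CPM, with intervals apart from those of myeloid-like cells in each population. MP-like cells read 68.7, 58.2 and 49.9 CPM of Notch2 and EC-like cells 10.8, 7.85 and 3.94 CPM. Notch3, the receptor of pericytes and vascular smooth muscle, was highest in mural-like rat cells, at 39.4 CPM in SD rat (30.9 to 49.4) and 39.0 CPM in chimera rat (31.7 to 47.4). MP-like rat cells followed at 6.13 and 2.64 CPM. In the mouse, the 47 MP-like cells read 52.1 CPM of Notch3 from 24 UMIs (33.4 to 77.5), FAP-like cells 17.2 CPM and EC-like cells 1.22 CPM. The mural markers summed to 2788 CPM in these mouse MP-like cells, beside 2206 CPM of MP markers, against 1938 and 1564 CPM in SD rat and 2039.7 and 1419 CPM in chimera rat MP-like cells, and the part of mural RNA in the Notch3 level was not tested.

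The Hey genes differed in where they were read. Hey1 stood at 37.4, 43.2 and 65.9 CPM in EC-like cells of SD rat, chimera rat and chimera mouse, and at 33.0 and 39.8 CPM in mural-like cells of SD rat and chimera rat, with overlapping intervals. Heyl was highest in mural-like rat cells, at 79.3 CPM in SD rat (67.1 to 93.1) and 98.8 CPM in chimera rat (86.9 to 112). MP-like cells read 42.5, 30.8 and 56.5 CPM of Heyl in SD rat, chimera rat and chimera mouse, and FAP-like cells 16.7, 25.5 and 4.83 CPM. The mural markers given beside Notch3 stand beside the mouse MP-like level of Heyl as well, and their part in it was not tested. EC-like cells read 3.01 CPM in SD rat and 4.18 CPM in chimera rat. The 1088 chimera mouse EC-like cells held no UMI on the mouse Heyl row, which allows up to 0.408 CPM, and 14 UMIs on the rat row.

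Within endothelium, arterial-like (63 SD rat, 29 chimera rat and 184 chimera mouse cells) and venous-like sub-clusters (55, 83 and 115 cells) were named from markers that hold no Notch gene. Dll4 stood at 196, 66.3 and 99.6 CPM in arterial-like and 2.72, 4.75 and 5.41 CPM in venous-like cells of SD rat, chimera rat and chimera mouse. Hey1 stood at 65.3, 51.5 and 186 CPM against 0, 9.51 and 1.55 CPM in the same order, Notch4 at 36.9, 73.6 and 56.9 CPM against 0, 9.51 and 6.19 CPM, and Jag2 at 68.1, 88.4 and 46.6 CPM against 10.9, 15.2 and 8.51 CPM. For these 4 genes, the arterial-like and venous-like intervals did not overlap in any population. Dll1 stood at 116, 103 and 20.5 CPM in arterial-like and 76.0, 35.2 and 37.9 CPM in venous-like cells, with intervals that overlapped in SD rat and chimera mouse and not in chimera rat. The chimera rat levels count the rat row alone. A further 2 Dll1 UMIs (12.5%) of arterial-like and 31 (45.6%) of venous-like chimera rat cells lay on the mouse row.

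**Figure D2:**
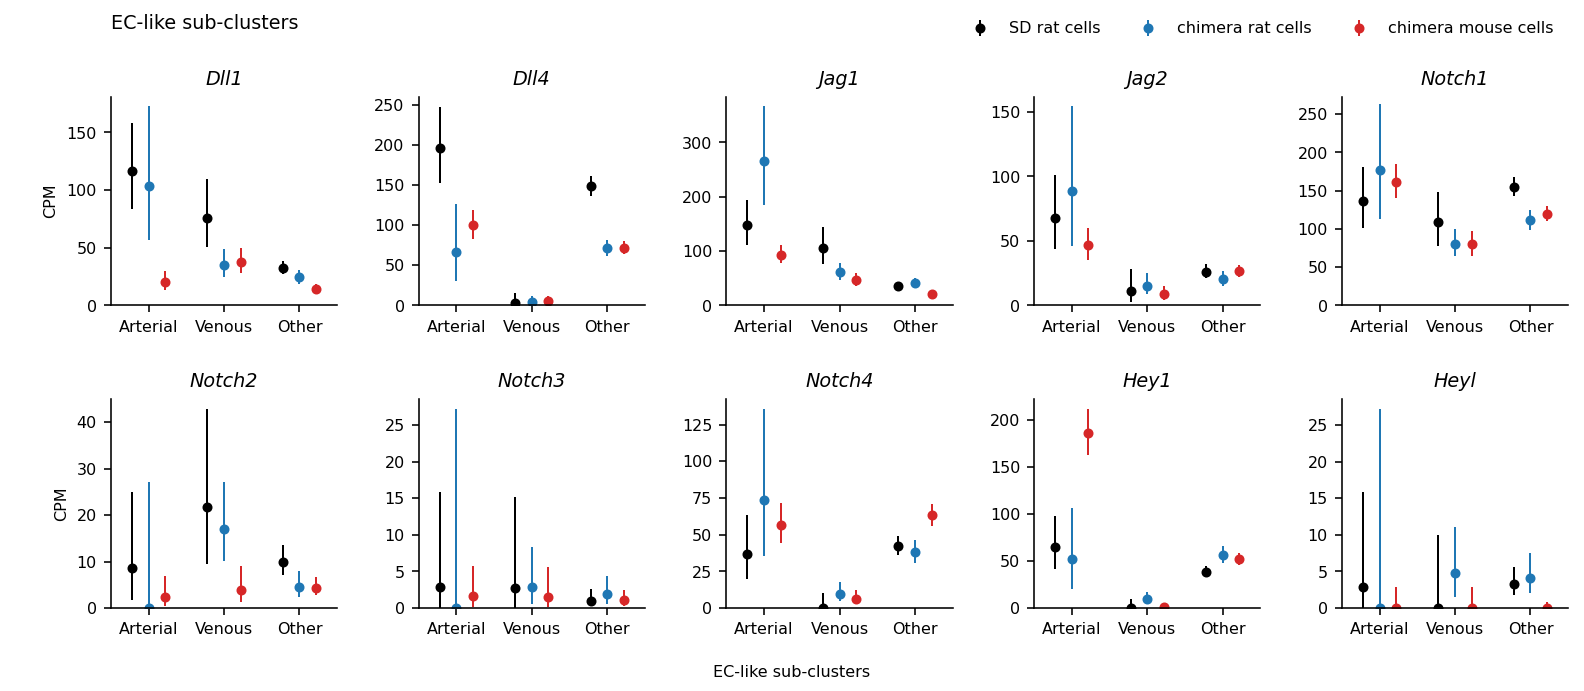
CPM of the 10 genes, with exact 95% Poisson intervals, in arterial-like, venous-like and other EC-like sub-clusters of SD rat, chimera rat and chimera mouse cells. Dll4, Notch4 and Hey1 lie under 10 CPM in venous-like cells of all 3 populations, and Jag1 is highest in arterial-like cells.

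A gene was called where it differed at least 2-fold (1 CPM added to each side) with at least 50 UMIs over both groups. In arterial-like over venous-like cells, 4 genes could be tested in SD rat and 1 was called higher (Dll4), 3 in chimera rat of which 3 were called higher (Dll1, Jag1 and Notch1), and 7 in chimera mouse of which 5 were called higher (Dll4, Hey1, Jag2, Notch1 and Notch4), against 8.89%, 16.1% and 9.16% of all genes tested. The chimera rat calls read the rat row alone. Given the unequal mouse-row shares of Dll1 above, its call there may depend on this, and both rows added were not tested. The mouse log2 ratio was 3.97 for Dll4 (3.12 to 5.54), with intervals on ratios taken from the exact binomial interval of the counts. Against the EC-like cells named neither arterial nor venous, it was Jag1 that was called higher in arterial-like cells of all 3 populations, 4.05-fold, 6.28-fold and 4.16-fold, while Dll4 was not called. Beside Jag1, these 7 tested genes gave Dll1 and Jag2 in SD rat and in chimera rat and Hey1 in chimera mouse, against 4.87%, 10.5% and 2.7% of all genes called higher. Venous-like against the same remaining cells gave Dll4, Notch4 and Hey1 lower in all 3 populations, and Jag2 lower in SD rat and mouse, against 16%, 9.82% and 11.2% of all genes. Jag1 and Dll1 were called higher there in SD rat and mouse, against 6.49% and 5.76%.

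Mural-like rat cells fell into pericyte-like (153 SD rat and 150 chimera rat cells), smooth muscle-like (79 and 131) and unnamed sub-clusters (154 and 140). Heyl stood at 137 and 146 CPM in pericyte-like and 111 and 116 CPM in smooth muscle-like cells of SD rat and chimera rat, and Notch3 at 71.0 and 57.1 CPM against 91.2 and 50.0 CPM. Neither gene was called between these sub-clusters in either animal. Notch2 stood at 20.3 and 31.7 CPM in pericyte-like and 114 and 68.8 CPM in smooth muscle-like cells. It was the only call among 5 genes tested in the chimera rat (log2 ratio -1.09, -2.05 to -0.27), against 10.3% of all genes called lower, and missed 50 UMIs in the SD rat, where none of 4 genes was called against 16.6% of all genes in either direction. Dll1, Dll4 and Notch4 lay mainly in the unnamed sub-clusters, at 34.0, 62.8 and 29.7 CPM in the SD rat against 2.53, 12.7 and 0 CPM in pericyte-like cells. Endothelial markers summed to 4385 CPM in the unnamed, 999 CPM in the pericyte-like and 1071 CPM in the smooth muscle-like SD rat cells (3809.9, 611 and 456 CPM in chimera rat), and the part of endothelial RNA in these levels was not tested.

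**Figure D3:**
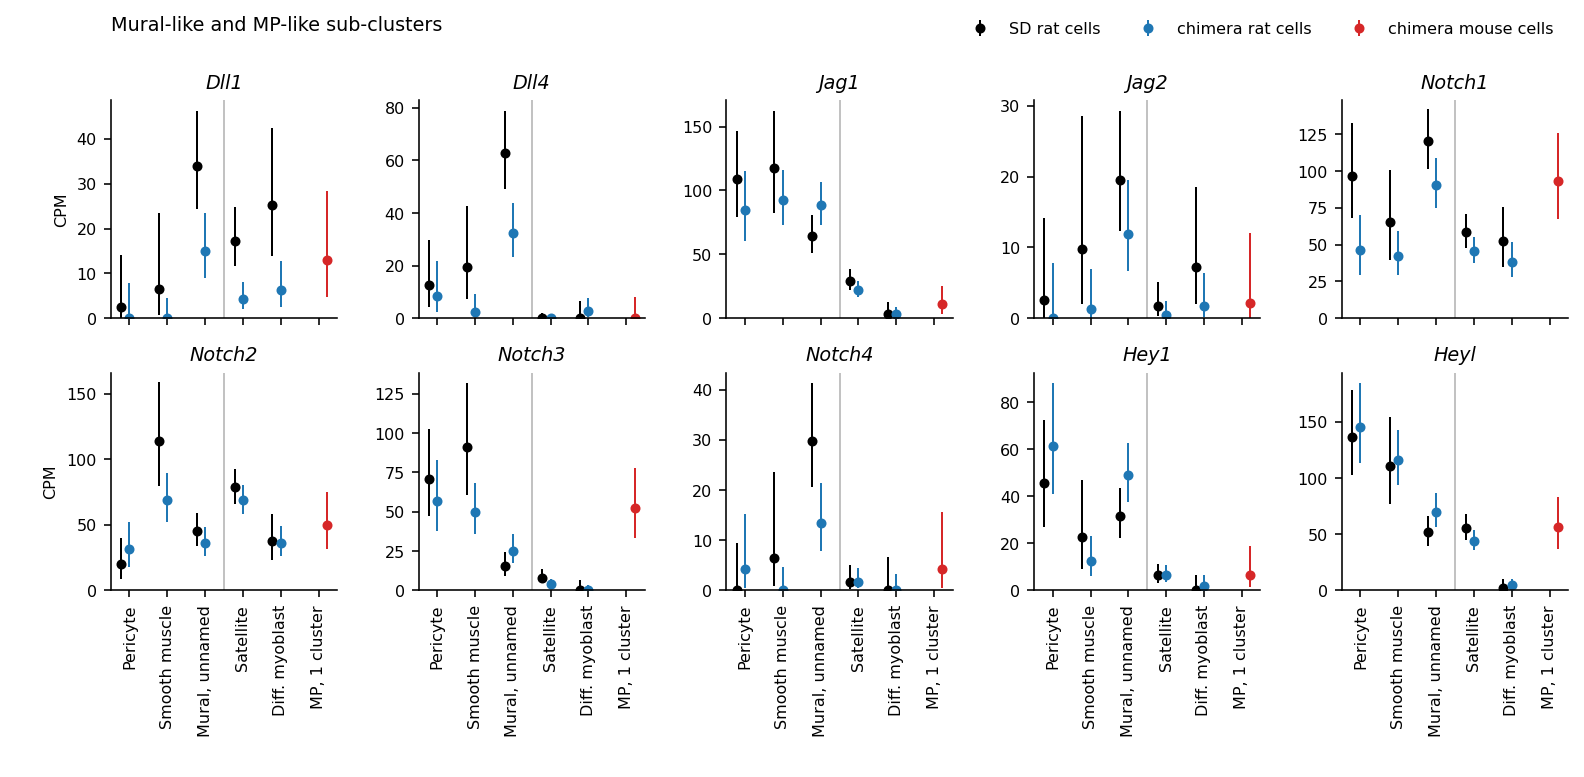
CPM of the 10 genes, with exact 95% Poisson intervals, in sub-clusters of mural-like and MP-like cells of SD rat and chimera rat, and in the single MP-like cluster of chimera mouse cells. Heyl and Notch3 stand high in pericyte-like and smooth muscle-like cells, and Heyl and Jag1 lie under 5 CPM in differentiating myoblast-like cells.

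In the myogenic lineage, satellite-like cells (306 SD rat, 329 chimera rat) were compared with differentiating myoblast-like cells (51 and 89). Heyl stood at 55.5 CPM in satellite-like cells of the SD rat (96 UMIs) and 43.9 CPM in those of the chimera (100 UMIs), against 1.81 CPM (1 UMI) and 4.44 CPM (5 UMIs) in differentiating myoblast-like cells. Jag1 stood at 29.5 and 22.4 CPM against 3.61 and 3.55 CPM. Both were called higher in satellite-like cells in each animal, with chimera rat log2 ratios of 3.04 for Heyl (2.03 to 4.96) and 2.36 for Jag1 (1.21 to 4.58). Notch2 was called in the SD rat (log2 ratio 1.03, 0.38 to 1.79) and fell short of 2-fold in the chimera (0.90, 0.42 to 1.45). Notch1 had log2 ratios of 0.15 and 0.25, with intervals that included 0. Thus 3 of 4 genes in the SD rat and 2 of 4 in the chimera were called higher, against 14.7% and 11.2% of all genes.

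Chimera rat cells were next compared with SD rat cells of the same class. In EC-like cells, Dll4 stood at 52.6 CPM in the chimera and 140.3 CPM in the SD rat (201 and 652 UMIs, log2 ratio -1.40, -1.65 to -1.19). It was the only call among 8 genes tested, against 3.2% of 9023 rat genes called lower and 6.3% in either direction. Notch1 (-0.51) and Dll1 (-0.47) had ratios below 0 within 2-fold, as did Jag2 (-0.40), whose interval ended just under 0, and the intervals of Notch4 (-0.29), Notch2 (-0.41), Hey1 (0.20) and Jag1 (0.13) included 0. The median log2 ratio was -0.40 over the 8 genes and 0.01 over all genes tested. RNA of other cells differed as well, with myofibre markers summing to 27420.2 CPM in SD rat and 10536 CPM in chimera rat EC-like cells and erythroid markers to 18454 and 5437 CPM. Their part in the ratios was not tested.

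Chimera reads were mapped to rat and mouse genes together and SD rat reads to rat genes alone, so that UMIs of a rat cell can lie on a mouse row in the chimera only. In chimera rat EC-like cells, 35.0% of Dll4 UMIs lay on the mouse row (108 UMIs), 32.7% of Dll1 and 18.5% of Notch1, against 5.86% of Jag1 and 3.51% of Hey1. The median over 6718 gene pairs was 4.35% (quartiles 1.81 and 9.33%). With both rows added, the Dll4 ratio was -0.90 (-1.11 to -0.71), within 2-fold but still below 0, and Dll1 was at -0.03 (-0.33 to 0.27). None of the 8 genes was then called, against 5.84% of 8442 gene pairs. Outside the arterial-like and venous-like sub-clusters, the Dll4 ratio was -1.05 on the rat row and -0.61 (-0.83 to -0.41) with both rows. Within arterial-like cells Dll4 was called lower in the chimera (-1.55, -2.75 to -0.56) among 4 genes, against 8.03% of genes, and within venous-like cells Dll1 (-1.09, -1.86 to -0.35) among 3, against 5.93%, and neither with both rows added (-0.39 and -0.33).

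**Figure D4:**
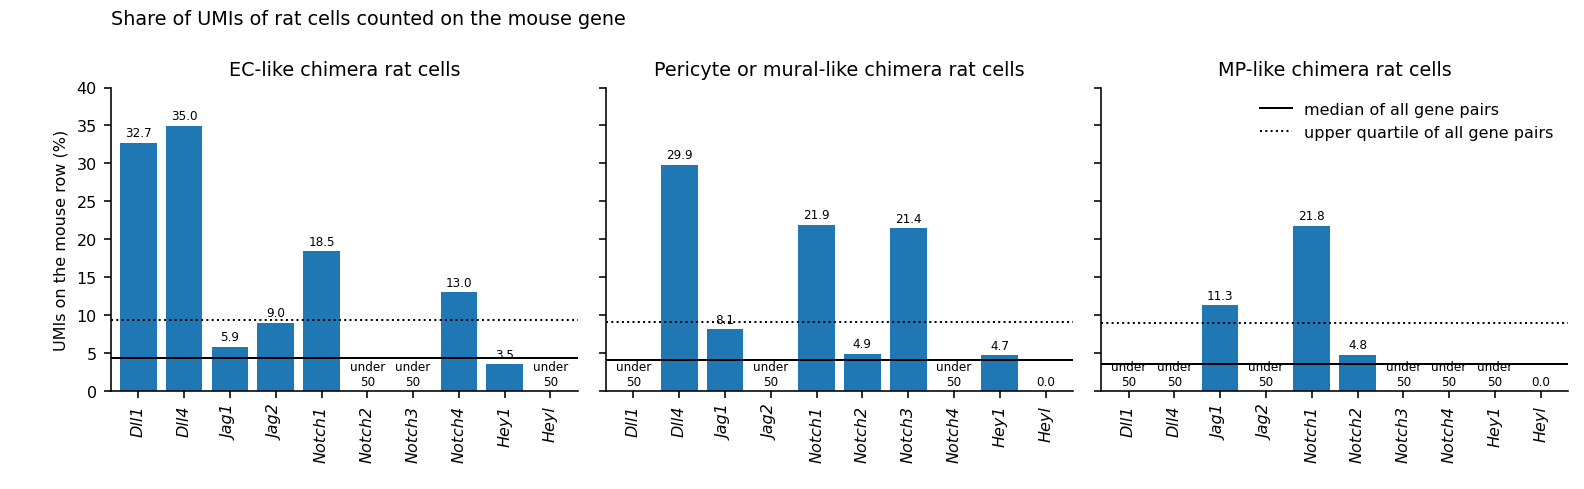
Percent of the UMIs of each gene in chimera rat cells that were counted on the mouse row, in EC-like, mural-like and MP-like cells, with lines at the median and upper quartile of all gene pairs. Dll4, Dll1, Notch1 and Notch4 stand above the upper quartile in EC-like cells, and Heyl is at 0 in mural-like and MP-like cells.

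In mural-like cells, 3 of 9 genes tested were called lower in the chimera, against 3.65% of 7640 genes. Dll1 stood at 7.48 against 22.9 CPM (log2 ratio -1.49, -2.47 to -0.80), Dll4 at 18.5 against 45.2 CPM (-1.25, -1.84 to -0.76) and Notch4 at 7.48 against 19.7 CPM (-1.29, -2.28 to -0.56). These are the genes of the unnamed sub-clusters, and the endothelial markers of the whole class summed to 2159 CPM in chimera rat and 3133 CPM in SD rat cells. Within the unnamed sub-clusters, Dll1 stood at 14.98 CPM in chimera rat and 34.0 CPM in SD rat cells. Dll4 stood there at 32.3 and 62.8 CPM and Notch4 at 13.4 and 29.7 CPM, in the same order. The endothelial marker sums of these sub-clusters are given above, and the part of endothelial RNA in the ratios was not tested. With pericyte-like and smooth muscle-like cells pooled, a choice made after seeing the data, 6 genes could be tested and none was called. Dll1, Dll4 and Notch4 had under 50 UMIs there, so the pooled cells could not show a call of these genes. In pericyte-like cells by themselves, Notch1 was called lower in the chimera, at 46.5 against 96.3 CPM (22 and 38 UMIs, log2 ratio -1.04, -1.88 to -0.26), 1 of 4 genes tested against 3.53% of genes, and not with both rows added (-0.72), while smooth muscle-like cells had no call among 5 genes, against 13.3% in either direction. With both rows added, Dll1 (-1.19) and Notch4 (-1.03) were called and Dll4 (-0.86) was not, among 9 genes, against 2.74% of gene pairs. Heyl, Jag1 and Notch3, each highest in this class, lay closer to the SD rat level, with log2 ratios of 0.31 for Heyl (0.02 to 0.62), 0.11 for Jag1 (-0.19 to 0.41) and -0.01 for Notch3 (-0.46 to 0.44).

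**Figure D5:**
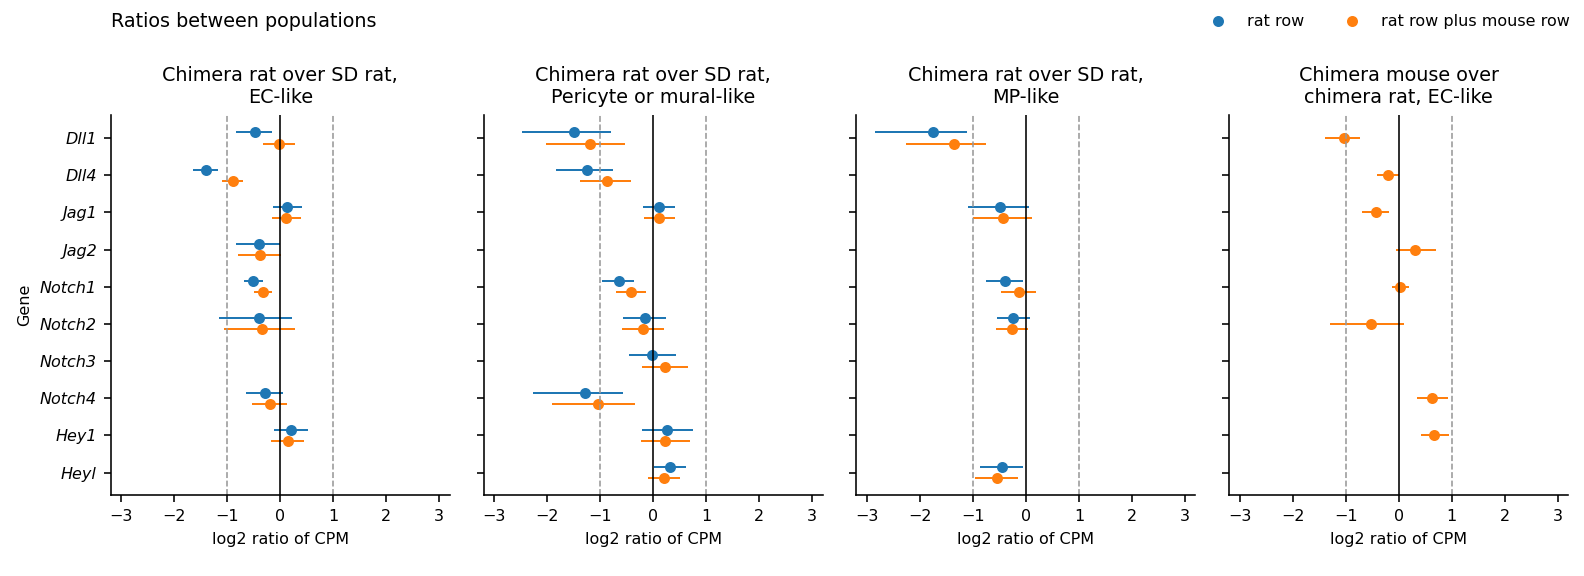
Log2 ratio of CPM (1 CPM added) of each gene with at least 50 UMIs, with 95% intervals from the exact binomial interval, on the rat row and with rat and mouse rows added; dashed lines mark 2-fold. In EC-like cells of chimera rat over SD rat, Dll4 moves from -1.40 to -0.90 when rows are added, and Dll1 lies at -1.03 in chimera mouse over chimera rat.

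In MP-like cells, Dll1 stood at 4.99 CPM in the chimera rat and 19.3 CPM in the SD rat (17 and 44 UMIs, log2 ratio -1.76, -2.85 to -1.11), the only call among 5 genes tested against 2.27% of 7624 genes called lower. It was called with both rows added as well (-1.37, -2.26 to -0.75). Heyl (-0.45) and Notch1 (-0.39) lay below 0 within 2-fold, and the intervals of Notch2 (-0.24) and Jag1 (-0.50) included 0. In satellite-like cells alone, a choice made after seeing the data, none of 4 genes was called, and Dll1 was too low to be tested. On the rat row, Dll1 stood there at 17.3 CPM in SD rat and 4.39 CPM in chimera rat (30 and 10 UMIs). Differentiating myoblast-like cells read 25.3 and 6.22 CPM (14 and 7 UMIs). Of the chimera rat Dll1 UMIs, 28.6% in satellite-like and 36.4% in differentiating myoblast-like cells lay on the mouse row. In LyEC-like cells, Dll4 was called among 3 genes, at 29.8 against 89.5 CPM (log2 ratio -1.56, -2.37 to -0.87), against 3.29% of genes called lower, and not with both rows added (-0.82). FAP-like cells had no call among 7 genes, against 2.48% of genes in either direction, with Heyl at 0.58 and Hey1 at 0.68, both above 0. Myeloid-like cells had none among 4, against 5%. Schwann or glial-like cells gave the only call in the other direction among the classes, Notch2 at 80.6 CPM in the chimera and 38.5 CPM in the SD rat (49 and 30 UMIs, log2 ratio 1.05, 0.38 to 1.77), 1 of 2 genes tested against 2.69% of genes called higher, and within 2-fold with both rows added (0.94). T or NK-like, B cell-like and tenocyte or fibroblast-like cells had no call among 2, 1 and 3 genes, against 16.7%, 14.2% and 3.38% of genes in either direction, and no member could be tested in myocyte-like or mast cell-like cells.

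Chimera mouse and chimera rat cells come from 1 library, and were compared with the rat and mouse rows of each gene added. In EC-like cells, Dll1 stood at 19.8 CPM in mouse and 41.3 CPM in rat cells (146 and 171 UMIs, log2 ratio -1.03, -1.39 to -0.74), the only call among 8 genes tested, where 13.3% of 9257 gene pairs were called lower and 27.9% in either direction. Of the 171 UMIs of rat cells, 56 lay on the mouse row. On own-species rows Dll1 stood at 19.7 CPM in mouse and 30.1 CPM in rat cells and was not called. Hey1 (0.67, 0.43 to 0.94) and Notch4 (0.62, 0.35 to 0.93) lay above 0 and Jag1 (-0.43) below it, all within 2-fold, and Notch1 stood at 121 and 119 CPM (0.03, -0.13 to 0.19). Arterial-like cells were 184 of 1088 mouse and 29 of 719 rat EC-like cells. Outside the arterial-like and venous-like sub-clusters, Hey1 was at -0.04 (-0.34 to 0.26), Notch4 at 0.63 and Dll1 at -1.01, Dll1 being the only call among 7 genes against 12.6% of gene pairs. Within arterial-like cells, Hey1 was called higher in the mouse, at 190.2 against 47.3 CPM (235 and 7 UMIs, log2 ratio 1.98, 0.94 to 3.34), and Jag1 lower, at 96.3 against 243 CPM (-1.33, -1.89 to -0.76), among 6 genes tested, against 23.2% of gene pairs called higher and 13.8% lower. Within venous-like cells none of 3 genes was called, against 31.1% in either direction. The rows of the 2 species have their own annotations, whose part in these ratios was not tested.

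In MP-like cells of the chimera none of 4 genes was called between mouse and rat, against 31.6% of gene pairs in either direction. Heyl stood at 57.0 and 28.8 CPM (log2 ratio 0.96, 0.31 to 1.62) and Notch1 at 94.3 and 51.6 CPM (0.86, 0.36 to 1.35). Notch3 stood at 52.6 and 4.12 CPM from 24 and 15 UMIs, too few for a call. Mural markers, given with the levels of Notch3, summed to 2788 CPM in the mouse and 2039.7 CPM in the rat MP-like cells, and their part in these differences was not tested. In FAP-like cells, Notch1 (1.55) and Notch3 (2.06) were called higher and Heyl (-2.07) lower in the mouse among 6 genes, against 17.1% and 13.1% of gene pairs. In myeloid-like cells, Jag1 was called lower in the mouse, at 11.7 against 29.8 CPM (log2 ratio -1.27, -1.93 to -0.80), 1 of 4 genes against 22.9% of gene pairs, while Notch2 stood at 122 and 121 CPM (0.00, -0.18 to 0.18). T or NK-like and B cell-like cells had no call among 2 and 1 genes, against 30.8% and 26.8% of gene pairs.

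Other genes of the pathway were counted from lists of further ligands and targets, proteases, ligand endocytosis and receptor glycosylation, the nuclear complex, and turnover, with the log2 ratio of each called gene beside it and the share of all genes called in either direction after it. Between chimera rat and SD rat, 1 of 32 was called in EC-like cells, Poglut1 (1.23), which glycosylates the receptor, against 6.3%. None was called among 28 in mural-like and 27 in MP-like cells, against 5.25% and 3.63%. LyEC-like cells gave 1 of 14, Nrarp (1.29), a target that dampens the signal, against 5.85%. Schwann or glial-like cells gave 1 of 14, Ep300 (-1.14), against 6.03%, and T or NK-like cells 5 of 26, Aph1a (1.07), Dtx2 (-1.25), Furin (-1.24), Hes1 (-1.96) and Lfng (-1.40), against the share given above for the members. Mast cell-like cells gave 1 of 6, Maml2 (-1.27), against 8.52%, and myocyte-like cells 2 of 12, Hes1 (-1.38) and Rfng (-1.08), against 6.34%. None was called among 37 in FAP-like, 32 in myeloid-like and 27 in tenocyte or fibroblast-like cells. In mouse over rat EC-like cells, 4 of 31 gene pairs were called against 27.9%, namely Dlk1 (-1.16), Nrarp (-2.70), Numb (1.04) and Pofut1 (1.15), where Dlk1 is a non-canonical ligand, Numb inhibits Notch and Pofut1 adds fucose to the receptor. Mouse over rat MP-like cells gave 6 of 21 against 31.6%, namely Dlk1 (-3.21), Fbxw7 (1.00), Itch (1.23), Maml2 (-2.03), Numb (1.89) and Snw1 (1.20), and FAP-like cells 7 of 33 against 30.2%, namely Adam10 (1.20), Aph1b (1.42), Dtx4 (1.54), Maml3 (1.50), Numb (1.33), Pofut1 (2.05) and Psen2 (2.00). T or NK-like cells gave 7 of 26, Adam17 (1.09), Dtx3 (1.38), Furin (2.06), Hes1 (-1.46), Maml1 (1.21), Nrarp (-1.83) and Psen2 (1.17), and B cell-like cells 4 of 22, Adam10 (-1.39), Dtx2 (-2.85), Hes1 (2.93) and Nrarp (-4.04).

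Between sub-clusters, arterial-like over venous-like cells gave 3 of 10 other pathway genes in SD rat against 16.2%, namely Furin (1.02), Hes1 (2.25) and Nrarp (2.06). Chimera rat cells gave 5 of 11 against 34.7%, namely Adam10 (1.51), Adam17 (1.11), Furin (1.54), Maml3 (-1.60) and Nrarp (1.62), and chimera mouse cells 6 of 23 against 17.4%, namely Furin (1.16), Hes1 (1.46), Maml2 (-1.05), Maml3 (-1.58), Mfng (-1.06) and Nrarp (2.29). Nrarp and Furin, a protease that matures the receptor, were thus called higher in all 3 populations and Hes1, the classical target, in SD rat and chimera mouse. In satellite-like over differentiating myoblast-like cells, SD rat gave 1 of 17, Hes1 (1.84), against 23.2%, and chimera rat 2 of 21, Fbxw7 (1.21) and Hes1 (2.17), against 18.5%, with Hes1 in the direction of Heyl. In pericyte-like over smooth muscle-like cells, SD rat gave 2 of 8, Hes1 (1.10) and Maml2 (-1.27), against 16.6%.

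Genes whose level followed that of a member most closely over the 13 classes of SD rat cells (cycling cells included) were sought among 10727 rat genes by Pearson correlation of log2(CPM + 10), a description only, since all points come from 1 library. The 3 closest to Dll4 were Myct1 (0.994), Robo4 (0.991) and Ca4 (0.990), with r in parentheses. For Dll1 they were Tspan12 (0.935), Tox3 (0.906) and RGD1306556 (0.882), for Jag1 Cdc42ep2 (0.928), Maoa (0.901) and Rhoc (0.898) and for Jag2 Akr1c15 (0.957), Zfp366 (0.957) and Ptprr (0.955). Of the receptors, Notch1 lay closest to Bcor (0.928), Mink1 (0.926) and Fam219a (0.898), Notch2 to Tep1 (0.909), Mcub (0.906) and Scamp2 (0.861), Notch3 to Kcnj8 (0.944), Gpr176 (0.937) and Ano1 (0.933) and Notch4 to Lipe (0.992), ENSRNOG00000023122 (0.989) and Cmtm8 (0.985). Kcnj8 is a pericyte channel gene. Hey1 lay closest to Hoxa3 (0.975), Podxl (0.972) and Rasip1 (0.966) and Heyl to Pla2r1 (0.966), Sh3rf3 (0.916) and Adamts8 (0.883).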

How the data were processed

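The deposited files hold raw UMI counts per gene and barcode, which the authors made with Cell Ranger 7.1.0 (builds mRatBN7.2 and GRCm39 per the submitters' processing notes). Barcodes with at least 500 UMIs, at least 200 genes and at most 20% mitochondrial UMIs were kept, and doublets predicted by Scrublet (scanpy 1.11.5, expected rate 8%) were removed, 164 in the SD rat and 444 in the chimera. Cells of each population were clustered on 2000 variable genes without Notch and mitochondrial genes, 30 principal components and 15 neighbours with leidenalg 0.10.2 at resolution 1, and sub-clustered at 0.8. A cluster was named from at least 3 raised markers (in 10% of its cells and 2-fold over the median of other clusters), by rules set after the clusters were seen; cycling and erythroid-like classes were left out of the ranking of classes. UMIs were summed per class. The comparisons have no test, and the ratio and interval code was tested on simulated data. All 10 genes are named, with the other pathway genes called between classes and between arterial-like and venous-like, pericyte-like and smooth muscle-like, and satellite-like and differentiating myoblast-like cells, and the 3 closest genes by likeness (at least 200 UMIs). The rule fixed for naming covered every comparison; pathway genes called only in other sub-cluster comparisons, or with both species' rows added between chimera rat and SD rat, are not listed. Calls of other pathway genes in 3 of the comparisons named are not reported here. Alternatives covered species threshold, doublets, depth, clustering, gene rows, pseudocount, filters on low counts and single cells. The members and lists were chosen with earlier results of these data known.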

Additional observations from a re-analysis of the deposited data

Results flagged for a closer look

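The 1653 mixed barcodes of the chimera, which entered no comparison, held 3456 UMIs of the 10 genes, 1515 on rat rows and 1941 on mouse rows, and were flagged as signal in data that the comparisons do not use. Notch1 gave the most with 883 UMIs, and Heyl had 240 UMIs on the rat row and 8 on the mouse row.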

How the results depend on the processing

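Of 69 counts recomputed under alternatives, 55 stayed within 1.5 times the reported count and 14 moved. A count carries no sign, so a change of direction was not scored for them. With a species threshold of 90%, which leaves 50 of 719 EC-like and 45 of 421 mural-like chimera rat cells, 1 gene was called between chimera rat and SD rat mural-like cells (Notch3) and 4 between mouse and rat EC-like cells (Dll1, Hey1, Jag2 and Notch4). That last count was 0 with at least 1000 UMIs per cell, 0 on own-species rows and 0 with a pseudocount of 10 CPM, and with doublets kept its 1 call was Notch2 in place of Dll1. Between chimera rat and SD rat, EC-like cells had 0 calls with rat and mouse rows added. Mural-like cells had 0 with a pseudocount of 10 CPM and 0 with at least 200 UMIs per gene. MP-like cells had 0 under each of these 2 settings, 3 at clustering resolution 0.5 (Dll1, Heyl and Jag1) and 2 with no filter on low counts (Dll1 and Jag2). Each gene called as reported in mural-like or MP-like cells had under 200 UMIs, so the filter at 200 UMIs removed it before any call. Chosen after seeing the data, pericyte-like and smooth muscle-like cells pooled gave 0 calls (pericyte-like cells by themselves gave 1, Notch1) and satellite-like cells alone gave 0. The genes called in the whole class, Dll1, Dll4 and Notch4 in mural-like and Dll1 in MP-like cells, were too low to be tested there. The causes were not tested. Dll4 in EC-like cells lay between -2.38 and -0.90 and was called in 11 of 12 settings. The setting without a call was the one with both rows added, and the other 11 read the rat row alone. With 201 and 652 UMIs, its call could not change under the filters on low counts. Dll1 in MP-like cells was called in 9 of 12 settings. No paired analysis was possible because each group is 1 library. Genes under 50 UMIs in a comparison could not be called at this depth.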
